A study of Mus musculus with 26 samples.

Results

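The 46 genes described here encode ephrins, slits, netrins and semaphorins, which steer growing axons and migrating cells, together with the receptors that read them. They were taken as the rows of the deposited count table whose Ensembl mouse gene identifier maps to a listed symbol, and all 46 symbols were found among the 54532 genes of the table. They comprise 8 ephrins, 12 Eph receptors, 3 slits, 2 Robo receptors, 2 netrins, 3 netrin receptors, 9 semaphorins, 2 neuropilins and 5 plexins. The rule goes by gene names and uses no measured value.

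Ephrins are ligands held at the cell surface. They bind Eph receptor tyrosine kinases on neighbouring cells, and gradients of ephrin-A and EphA proteins order the projection of retinal ganglion cell axons onto the brain. Slits are secreted proteins that repel axons through Robo receptors, and netrin-1 attracts axons through DCC or repels them through UNC5 receptors, a system that directs ganglion cell axons out of the eye at the optic disc. Semaphorins signal through plexins, and most of the secreted class 3 semaphorins need a neuropilin as the binding partner.

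RNA was measured in 26 libraries of untreated mice, all labelled day 0. Retinal RNA that had been immunoprecipitated (IP) to enrich the RNA of astrocytes gave 6 libraries, and unprecipitated input RNA of the retina gave 6. The optic nerve head (ONH), where ganglion cell axons gather and leave the eye, gave 7 IP libraries. The nerve behind it, called optic nerve proper (ONP), whose axons are myelinated, gave 7 IP libraries. The 12 retinal libraries and replicate 7 of ONH and of ONP, here called the bridging libraries, are labelled batch 2 and were sequenced together, and the other 12 nerve libraries are labelled batch 1 and came from an earlier study. The strain, age, sex and alleles of the mice and the tag or antibody of the immunoprecipitation are not given in the sources used here. Nothing says that the replicates came from separate animals, so a p-value covers only the spread among libraries.

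Total counts ranged from 11164619 to 27431026 per library. Levels are given as CPM, the count of a gene scaled to a common library total. A difference is given as a log2 fold change from edgeR's quasi-likelihood test. It was called where p, adjusted by Benjamini and Hochberg's method over all genes tested, was under 0.05. The standard error (SE) was back-calculated from the fold change and the F statistic of the test. It is therefore approximate, most of all for genes near 0 counts in a group. The 3 comparisons between regions carried a batch term, so their fold changes differ from the ratio of the mean CPM values. All 10 astrocyte markers were detected in every group, with sums of 7588 to 38240 CPM in retina IP, 4094 to 7041 CPM in input of the retina, 7638 to 33040 CPM in ONH IP and 12680 to 40370 CPM in ONP IP. The make-up of these sums differed. Aldoc averaged 13050 CPM in retina IP, 2189 CPM in ONH IP and 2170 CPM in ONP IP, and Gfap 1892, 10760 and 13250 CPM in the same order. Markers of other cells were also present. The 11 oligodendrocyte markers summed to 55.9 to 169 CPM in retina IP, 19.1 to 77.2 CPM in retina input, 28380 to 71860 CPM in ONH IP and 36540 to 118200 CPM in ONP IP. The 12 ganglion cell markers summed to 981 to 5689 CPM in retina IP, 4202 to 6711 CPM in retina input, 33.8 to 268 CPM in ONH IP and 13.3 to 40.4 CPM in ONP IP. ONH IP replicate 7 stood apart, with 10 rod photoreceptor markers summing to 47350 CPM against 41.3 to 711 CPM in the other 6 ONH libraries, so results of the 2 retina against nerve comparisons are given with and without it where it moved them. In RNA from a tissue, fewer cells of a type and less RNA per cell cannot be told apart.

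Promoters of 4 members with large differences between retina and nerve are shown so that the genes can be placed, taken from RefSeq on the GRCm38.p6 build. Each is the 250 bases before the annotated start, printed 5′ to 3′ on the strand of the gene, with CG dinucleotides in capitals. Epha4 (chr1:77515089-77515338, minus strand) and Epha5 (chr5:84417383-84417632, minus strand) encode EphA receptors that had higher levels in retina. Unc5b (chr10:60831582-60831831, minus strand), a netrin receptor gene, and Plxnd1 (chr6:115995006-115995255, minus strand), a semaphorin receptor gene, had lower ones.
Epha4: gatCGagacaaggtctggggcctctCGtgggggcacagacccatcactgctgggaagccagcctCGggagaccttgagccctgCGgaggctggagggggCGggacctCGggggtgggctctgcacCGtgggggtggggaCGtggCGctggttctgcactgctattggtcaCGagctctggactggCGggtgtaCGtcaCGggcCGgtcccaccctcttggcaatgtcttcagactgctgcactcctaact
Epha5: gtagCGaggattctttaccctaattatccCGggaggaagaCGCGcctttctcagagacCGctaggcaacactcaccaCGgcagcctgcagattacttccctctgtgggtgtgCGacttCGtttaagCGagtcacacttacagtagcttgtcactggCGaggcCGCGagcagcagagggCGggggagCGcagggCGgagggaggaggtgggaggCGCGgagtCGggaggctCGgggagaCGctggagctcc
Unc5b: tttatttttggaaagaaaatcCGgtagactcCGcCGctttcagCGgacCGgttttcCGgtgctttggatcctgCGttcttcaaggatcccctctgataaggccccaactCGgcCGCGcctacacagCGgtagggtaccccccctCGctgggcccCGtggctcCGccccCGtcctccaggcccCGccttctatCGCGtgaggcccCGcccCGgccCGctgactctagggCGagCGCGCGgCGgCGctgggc
Plxnd1: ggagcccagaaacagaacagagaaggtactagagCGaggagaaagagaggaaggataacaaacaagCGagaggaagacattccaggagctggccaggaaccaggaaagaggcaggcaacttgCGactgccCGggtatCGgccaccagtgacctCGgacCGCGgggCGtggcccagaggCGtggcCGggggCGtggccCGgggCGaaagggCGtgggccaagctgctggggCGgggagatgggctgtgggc
The letters CG, which read the same on both strands, occurred 14 times upstream of Epha4, 20 times upstream of Epha5, 27 times upstream of Unc5b and 16 times upstream of Plxnd1. The GC content of these stretches was 66.0%, 62.4%, 66.8% and 64.8% in that order. Of all 32841 promoters of the RefSeq table, 92.1% held at least 1 CG, with a median of 6 CG and a GC content of 52.4%. The 39 members with an entry had 47 promoters, all with at least 1 CG, and a median of 17 CG (1 to 46) at a median GC content of 64.8%. These counts describe the letters in the window only.

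In retina IP the best represented members per kilobase of annotated exon were the ephrin gene Efna1 at 14.2 CPM per kb, the kinase-dead receptor gene Ephb6 at 12.4 CPM per kb and Efna5 at 9.24 CPM per kb. Retina input was led by Ephb6 at 8.96 CPM per kb and Ephb1 at 7.92 CPM per kb. The nerve had another order. In ONH IP the leading members were Efna1 at 47.3 CPM per kb, Sema4d at 35.4 CPM per kb and Efnb3 at 16.9 CPM per kb. In ONP IP they were Sema4d at 80.9 CPM per kb, Efna1 at 49.6 CPM per kb and Efnb3 at 46.7 CPM per kb. At the other end, Slit3 and Ntn1 averaged under 1 CPM in both retinal groups, and Epha6 had 0 counts in all 7 ONP libraries.

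**Figure D1:**
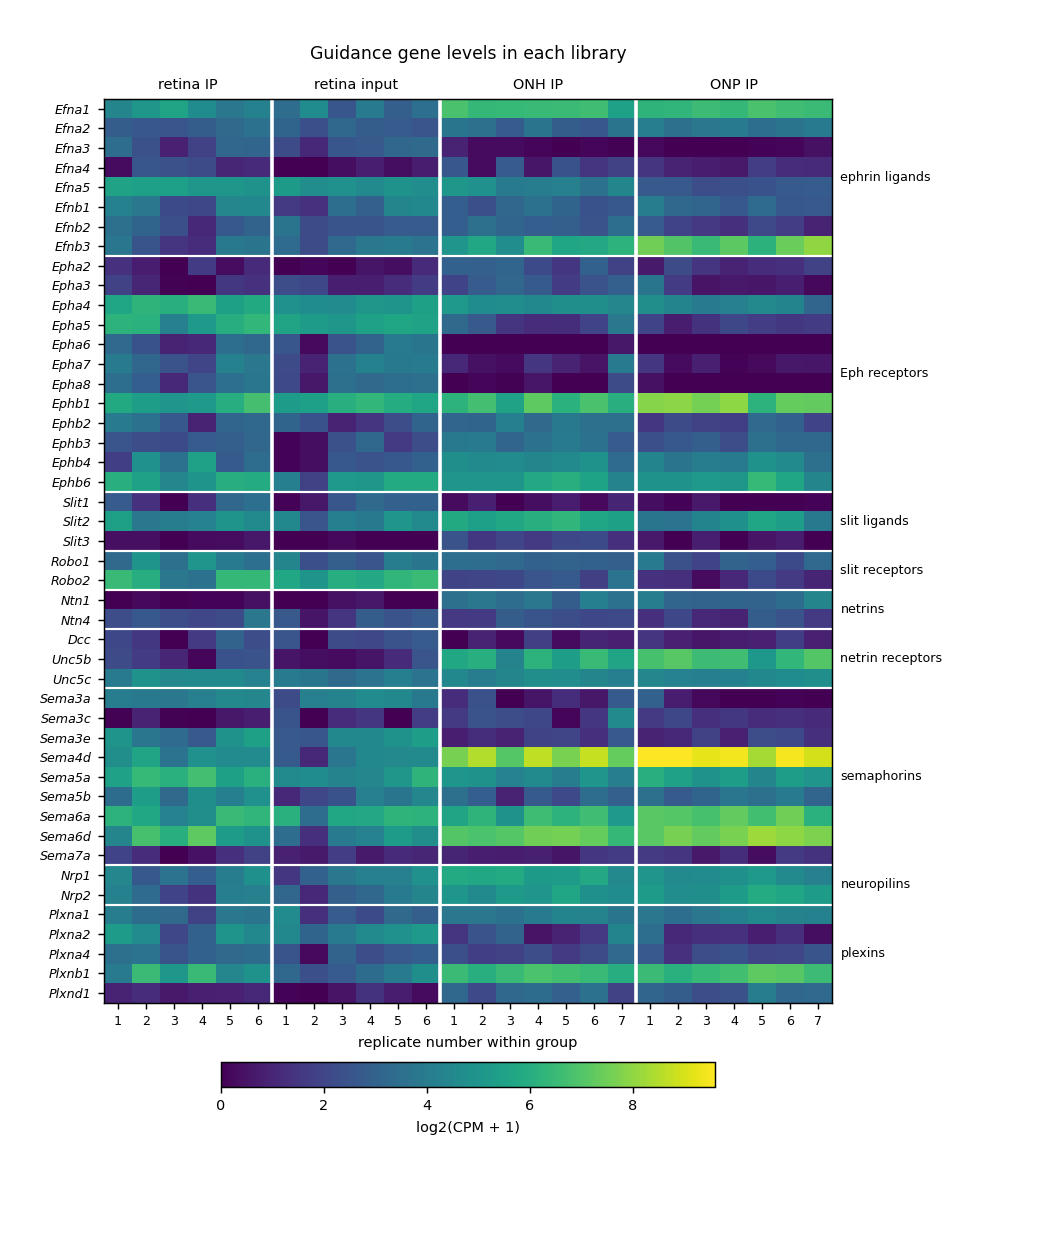
Levels of the 46 guidance genes as log2(CPM + 1) in each of the 26 libraries, with genes in rows by role and libraries in columns by group and replicate number. Sema4d is brightest in ONP IP, and Ntn1 is near 0 across the 12 retinal libraries while it lies between 6.21 and 19.9 CPM in the 14 nerve libraries.

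The first comparison asked which guidance transcripts the immunoprecipitation enriched over retinal input. No member passed the test in either direction, and none of the 15181 genes tested did (background 0%). Of the 43 members with enough counts to be tested, 7 had an unadjusted p under 0.05 with higher levels in IP and 0 with lower levels, against 1771 and 1585 of all genes, and DESeq2 called 2072 genes. The Eph receptor gene Epha4, the plexin gene Plxnb1 and the semaphorin gene Sema6d had the smallest p-values among the members, followed by the ephrin gene Efna4, which lay under 5 CPM. Efna4, named after its values were seen, ranged from 0.200 to 4.95 CPM in retina IP, against 0 to 0.742 CPM in input (2.96, SE 0.925, adjusted p = 0.0866), and shares 168 exonic bases with the opposite-strand gene 4731419I09Rik. The median log2 fold change of the 43 was 0.31, against 0.017 for all genes, with 31 members positive and 12 negative. Epha2, Ntn1 and Slit3 were too low for the test.

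Epha4, an EphA receptor that binds ephrins of both classes and is made by neurons and astrocytes, had 49.7, 74.9, 65.5, 87.7, 42.5 and 55.8 CPM in retina IP replicates 1 to 6, against 28.0, 24.5, 23.7, 32.8, 30.3 and 42.8 CPM in retina input replicates 1 to 6. The groups overlapped only between the lowest IP and the highest input library. It differed by a log2 fold change of 0.98 (SE 0.261, adjusted p = 0.0676), and DESeq2 called it.

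Plxnb1, the receptor for Sema4d, had 14.1, 93.3, 33.0, 88.1, 20.9 and 28.9 CPM in retina IP, against 8.20, 4.03, 5.75, 9.58, 14.2 and 26.8 CPM in retina input, in replicate order. The highest IP libraries were replicates 2 and 4, and IP replicates 1 and 5 lay within the range of input. On the log2 scale the difference was 2.01 (SE 0.539, adjusted p = 0.0683), and Plxnb1 became the only member called, at an adjusted p of 0.0436, when retina IP replicate 1 was left out. An opposite-strand gene, Gm7628, shares 257 exonic bases with it, and the library protocol does not state that strand was kept.

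Sema6d, a membrane semaphorin that binds A-type plexins, had 19.6, 111, 66.3, 147, 37.4 and 29.0 CPM in retina IP, against 1.52 to 38.6 CPM in retina input (median 16.4). The fitted difference was, in log2, 1.97 (SE 0.606, adjusted p = 0.0835). Ephb4, the receptor for ephrin-B2 known from vessels, had 2.48, 27.6, 11.1, 44.7, 5.66 and 9.73 CPM in retina IP, against 0.0766 to 6.87 CPM in retina input (median 4.85). Its log2 fold change was 2.26 (SE 0.839, adjusted p = 0.132), and it was 1.63 without retina IP replicate 4. For all 4 of these genes, retina IP replicates 2, 3 and 4 were the top of their group.

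The next 4 members by p with a mean of at least 5 CPM were Sema5a, Unc5c, Sema5b and Sema4d. Sema5a, a semaphorin with thrombospondin repeats, had 68.9 ± 24.4 CPM in retina IP, against 32.4 ± 21.5 CPM in input (mean and SD, n = 6 each), with input replicate 6 at 75.1 CPM, and its log2 fold change was 1.03 (adjusted p = 0.133). Unc5c, a netrin receptor, had 21.8 ± 4.89 CPM in retina IP, against 12.6 ± 2.69 CPM in input (0.69, adjusted p = 0.178). Sema5b, a relative of Sema5a, ranged from 8.95 to 39.7 CPM in retina IP, against 1.15 to 20.5 CPM in retina input (1.15, adjusted p = 0.265). Sema4d, a semaphorin made by oligodendrocytes in the brain, had 26.9 ± 11.8 CPM in retina IP, against 14.3 ± 9.35 CPM in input (0.94, adjusted p = 0.291). Slit3 had 32 counts in the 6 IP libraries and 2 in the 6 input libraries, a depth-scaled ratio of 12.3 (exact 95% interval 3.13 to 106, for counting error alone).

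DESeq2 called 5 of the members higher in IP (Efna4, Epha4, Ephb4, Sema6d and Plxnb1), where it called 6.38% of all genes higher and 7.27% lower, 13.6% in all. None of the 46 was called lower in IP by either tool. Among the remaining members, Sema3c had the most negative log2 fold change, with means of 0.377 CPM in retina IP against 1.71 CPM in input (-2.20, adjusted p = 0.298). Efna1 averaged 25.9 CPM in IP, against 11.8 CPM in input (0.91, adjusted p = 0.308). Means lay closer for Robo2 (57.4 CPM in IP, 62.2 CPM in input), Ephb1 (55.3 CPM in IP, 55.5 CPM in input) and Sema6a (55.7 CPM in IP, 55.3 CPM in input). These 5 were picked after their values were seen, to show the range.

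The retinal IP libraries differed among themselves in these genes. Robo2, the slit receptor of ganglion cell axons, had 90.4, 62.1, 13.1, 11.2, 83.8 and 84.1 CPM in IP replicates 1 to 6, and 30.5 to 93.4 CPM in input. Nrp2, a neuropilin, had 17.7, 9.12, 2.82, 1.68, 16.1 and 16.9 CPM in IP, and 1.08 to 19.8 CPM in input. In both genes IP replicates 3 and 4 were the lowest of their group, the reverse of Plxnb1 and Ephb4, where replicate 4 was high. The 10 astrocyte markers summed to 7588, 24240, 33230, 38240, 8187 and 10230 CPM in IP replicates 1 to 6, and the 12 ganglion cell markers to 5689, 2389, 1611, 981, 5073 and 5323 CPM. Other cell types split the same libraries. The 8 Muller glia markers summed to 12050, 40380, 41520, 42880, 10540 and 17990 CPM. The 9 amacrine cell markers summed to 6889, 1747, 1391, 1106, 7176 and 6225 CPM. Sums of the pericyte and fibroblast markers were also highest in replicates 2, 3 and 4. In retina IP these sums were mostly Rgs5 (mean 494 CPM) and Pdgfra (mean 790 CPM), and Pdgfra is also a marker of retinal astrocytes. Of the other markers in these sums, Fbln1 averaged 62.9 CPM, Acta2 1.79 CPM and Dcn 0.939 CPM in retina IP. The part of these marker levels in the values of the guidance genes was not tested.

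**Figure D2:**
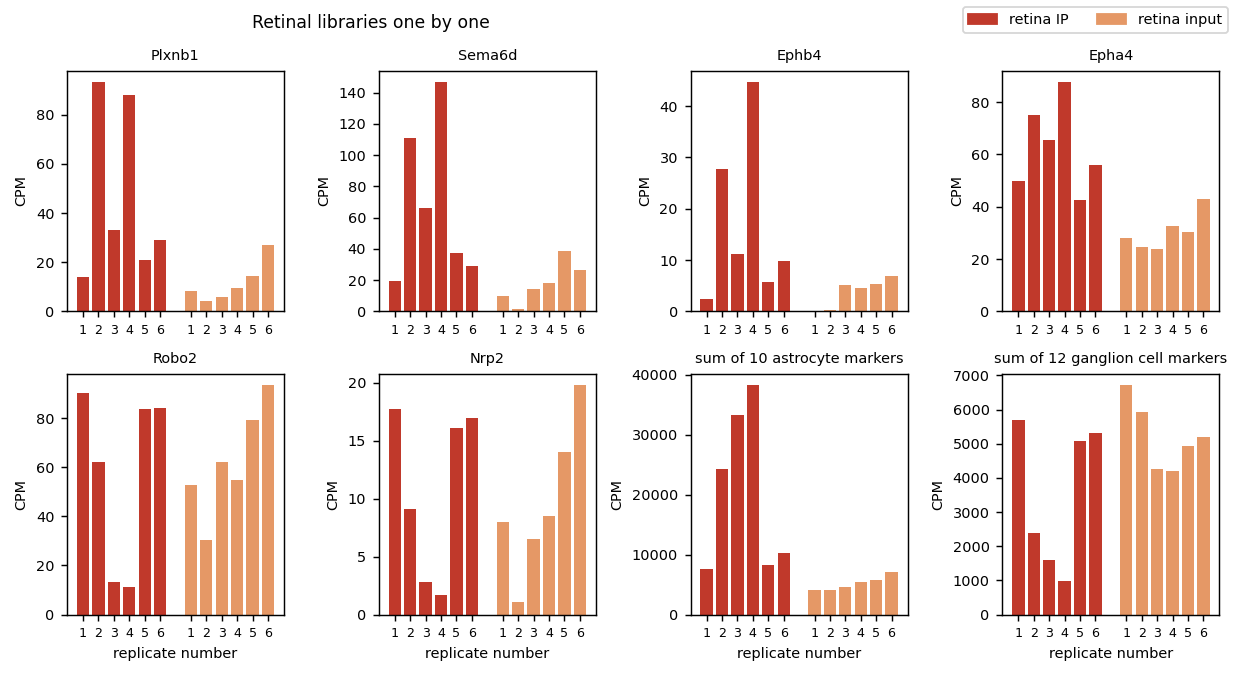
Levels in CPM of 6 guidance genes and summed levels of 10 astrocyte and 12 ganglion cell markers in each retinal library, with retina IP replicates 1 to 6 left of retina input replicates 1 to 6. Bars for Plxnb1, Sema6d, Ephb4 and Epha4 are tallest in IP replicates 2 and 4, and among the IP libraries those for Robo2 and Nrp2 are shortest in replicates 3 and 4.

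The second question was how retinal guidance transcripts compare with those of the nerve. Against ONH IP, 5 members were higher in retina IP (Epha4, Epha5, Robo2, Sema3e and Sema5a) and 7 were lower (Efna1, Efnb3, Ntn1, Unc5b, Sema3c, Sema4d and Plxnd1). Of the 16355 genes tested, 12.7% were called higher and 21.1% lower, 33.8% in all, so 12 of 46 members is below the background. Against ONP IP, 8 members were higher in retina IP (Efna3, Efna5, Epha4, Epha5, Epha6, Robo2, Sema3e and Sema5a) and 11 were lower (Efna1, Efna2, Efnb3, Ephb1, Ntn1, Unc5b, Sema3c, Sema4d, Sema6d, Nrp2 and Plxnd1). The background there was 12.9% higher and 19.9% lower, 32.8% in all, against which 19 of 46 members were called.

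Both comparisons used the same 6 retina IP libraries and are therefore given side by side and not as a repeat of each other. The median log2 fold change of the members was -0.09 against ONH IP and 0.84 against ONP IP, and that of all genes was -0.133 and -0.098. Leaving out the bridging library ONP IP replicate 7 reduced the calls to 3 higher and 5 lower against ONP IP and to the same numbers against ONH IP. Among the 3 higher against ONH IP, Efna3 was newly called. Of all 16264 genes then tested, 567 were higher and 1588 lower against ONP IP, and 722 and 2262 against ONH IP. The calls this omission ended are named with each gene. Leaving out ONH IP replicate 7 newly called Efnb2, Epha8 and Plxna2 higher against ONP IP, and Ephb3 lower against ONH IP. It gave 9 members higher and 9 lower against ONP IP (1889 and 2800 of 16145 genes). Against ONH IP it gave 5 higher and 7 lower (1640 and 2478 genes). Values within batch 2 are also given. The nerve has 1 library per region there, so their p-values assume that this lone library varies like the retinal ones and are no support for a call. The main fits lean on the same bridging libraries. Every retinal library is batch 2, so only ONH IP and ONP IP replicate 7 link retina to the batch 1 nerve libraries. Both of them enter either comparison through the batch term.

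Among the ephrins, Efnb3, a transmembrane ephrin that oligodendrocytes and midline cells carry, was lower in retina IP. It lay on mm10 chromosome 11 (69554092 to 69560205, minus strand). Retina IP ranged from 1.30 to 13.9 CPM (median 8.26), ONH IP from 25.4 to 91.0 CPM (median 52.6) and ONP IP from 70.2 to 256 CPM (median 146). No retinal IP library reached the lowest nerve library. The log2 fold change was -3.47 against ONH IP (SE 0.634, adjusted p = 0.000367) and -4.97 against ONP IP (SE 0.623, adjusted p = 5.49e-06). Within batch 2 it was -3.12 (adjusted p = 0.116) and -5.03 (adjusted p = 0.0149).

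Efna1, an ephrin-A known from vessels, ranged from 13.5 to 47.5 CPM in retina IP (median 22.1), from 44.0 to 113 CPM in ONH IP (median 86.8) and from 74.1 to 115 CPM in ONP IP (median 91.7). Only the bridging ONH library, at 44.0 CPM, fell within the retinal range. It was lower in retina IP against ONH IP (-1.37, SE 0.346, adjusted p = 0.00481) and against ONP IP (-1.54, SE 0.321, adjusted p = 0.00106). Without ONP IP replicate 7 both calls ended, at -0.81 (adjusted p = 0.167) and -0.82 (adjusted p = 0.269), and within batch 2 the values were -0.63 (adjusted p = 0.615) and -1.77 (adjusted p = 0.0838).

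Efna5, the ephrin-A whose gradient in the brain maps ganglion cell axons, was higher in retina IP than in ONP IP. Retina IP ranged from 28.5 to 44.9 CPM (median 37.5), ONH IP from 10.9 to 33.0 CPM (median 16.9) and ONP IP from 3.87 to 5.98 CPM (median 5.34). Retina IP and ONP IP were wide apart, and retina IP and ONH IP overlapped. Its log2 fold change was 2.66 against ONP IP (SE 0.386, adjusted p = 3.05e-05, and 2.68 within batch 2, adjusted p = 0.0102), and 0.71 against ONH IP (adjusted p = 0.124).

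Efna3, another ephrin-A, ranged from 0.852 to 9.77 CPM in retina IP, from 0 to 0.921 CPM in ONH IP and from 0 to 0.356 CPM in ONP IP. It was higher against ONP IP (5.06, SE 1.54, adjusted p = 0.0161), which became 3.83 (adjusted p = 0.12) without ONH IP replicate 7 and 8.56 without ONP IP replicate 7. Its exons share 344 bases with the opposite-strand gene Gm15998. Efna2 averaged 7.05 ± 2.47 CPM in retina IP (n = 6) and 12.95 ± 2.25 CPM in ONP IP (n = 7), with overlapping ranges, and was lower against ONP IP (-1.22, adjusted p = 0.0222). That call ended without either bridging library (adjusted p = 0.0985 without ONH IP replicate 7 and 0.117 without ONP IP replicate 7). With all libraries in, Efna4, Efnb1 and Efnb2 were not called. Their means were 2.53, 13.3 and 5.98 CPM in retina IP, 2.92, 6.72 and 7.42 CPM in ONH IP and 1.28, 8.15 and 2.66 CPM in ONP IP.

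Among the Eph receptors, Epha4 and Epha5 were higher in retina IP than in either nerve region. Epha4 (mm10 chromosome 1, 77367185 to 77515088, minus strand, the first promoter shown) ranged from 42.5 to 87.7 CPM in retina IP (median 60.7), from 20.6 to 35.7 CPM in ONH IP (median 25.1) and from 7.76 to 25.9 CPM in ONP IP (median 19.3). Every retinal IP library lay above every nerve library. It differed by a log2 fold change of 1.91 against ONH IP (SE 0.306, adjusted p = 0.000108) and 2.42 against ONP IP (SE 0.327, adjusted p = 1.3e-05). Without ONH IP replicate 7 the first was 2.51, and within batch 2 the values were 1.74 (adjusted p = 0.101) and 3.06 (adjusted p = 0.0166).

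Epha5, a receptor of ephrin-A ligands that ganglion cells carry in a gradient across the retina, had 73.5, 68.6, 17.2, 36.03, 62.6 and 81.6 CPM in retina IP replicates 1 to 6. ONH IP ranged from 1.34 to 13.2 CPM (median 2.78), highest in the bridging library, and ONP IP from 0.693 to 3.24 CPM (median 2.28). The groups did not overlap, although retina IP replicate 3 came close to the bridging ONH library. On the log2 scale the difference was 2.61 against ONH IP (SE 0.792, adjusted p = 0.0153) and 3.55 against ONP IP (SE 0.879, adjusted p = 0.00423). Without ONP IP replicate 7 both calls ended, at 2.06 (adjusted p = 0.171) and 2.76 (adjusted p = 0.122), and without ONH IP replicate 7 the values were 3.82 and 4.52. Within batch 2 they were 2.21 (adjusted p = 0.182) and 4.66 (adjusted p = 0.027).

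Epha6 ranged from 0.906 to 10.1 CPM in retina IP, was at 0 in 6 of 7 ONH libraries and 0.532 CPM in the bridging one, and was at 0 in all 7 ONP libraries. It had 647 counts in retina IP against 0 in ONP IP, a ratio of 235 over a floor of 3 counts, without the batch term. The fitted log2 fold change of Epha6 against ONP IP was 6.52 (SE 2.01, adjusted p = 0.0348). That value was 9.66 without ONH IP replicate 7 and 3.35 without ONP IP replicate 7, where the call ended. Its exons share 107 bases with the opposite-strand gene Gm9017. Ephb1, an EphB receptor that sends ganglion cell axons to the same side of the brain, ranged from 30.9 to 109 CPM in retina IP (median 48.1), from 45.1 to 148 CPM in ONH IP (median 72.5) and from 73.6 to 251 CPM in ONP IP (median 190). Retina IP overlapped both. It was lower against ONP IP (-1.51, SE 0.469, adjusted p = 0.0182), which ended without ONP IP replicate 7 (-1.36, adjusted p = 0.221), and it shares 152 exonic bases with the opposite-strand gene Gm26846.

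The other 8 Eph receptor genes, Epha2, Epha3, Epha7, Epha8, Ephb2, Ephb3, Ephb4 and Ephb6, passed neither test with all libraries in. Epha7 averaged 10.2 CPM in retina IP, 2.79 CPM in ONH IP and 0.599 CPM in ONP IP, and 14.8 CPM of it lay in the bridging ONH library. Epha8 averaged 7.51 CPM in retina IP, 0.601 CPM in ONH IP and 0.0485 CPM in ONP IP. Epha2 averaged 1.01, 5.19 and 1.78 CPM and Epha3 1.21, 5.12 and 2.44 CPM in the same order.

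Of the slit system, Robo2 was higher in retina IP and the slit genes were not called. Robo2 (mm10 chromosome 16, 73891839 to 74411825, minus strand) ranged from 11.2 to 90.4 CPM in retina IP (median 72.9), from 2.52 to 11.5 CPM in ONH IP (median 3.22) and from 0.203 to 3.43 CPM in ONP IP (median 1.52). The bridging ONH library, at 11.5 CPM, overlapped retina IP replicate 4. The fitted difference was, in log2, 2.93 against ONH IP (SE 0.908, adjusted p = 0.0171) and 4.31 against ONP IP (SE 1.03, adjusted p = 0.00332). Without ONH IP replicate 7 these were 4.64 and 5.73, and without ONP IP replicate 7 both calls ended, at 2.29 (adjusted p = 0.178) and 3.38 (adjusted p = 0.0969). Within batch 2 they were 2.43 (adjusted p = 0.342) and 5.86 (adjusted p = 0.064).

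Robo1, its paralogue, averaged 17.6 CPM in retina IP, 8.0 CPM in ONH IP and 6.82 CPM in ONP IP and was not called. Slit1 averaged 4.52 CPM in retina IP, 0.445 CPM in ONH IP and 0.142 CPM in ONP IP, with 1 retinal library at 0. Slit2 averaged 23.8, 55.5 and 24.99 CPM and Slit3 0.276, 2.82 and 0.351 CPM in the same order. None of the 3 slit genes passed the test of retina against a nerve region.

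Of the netrin system, Ntn1 and the receptor gene Unc5b were lower in retina IP. Ntn1, the gene of netrin-1 (mm10 chromosome 11, 68209364 to 68400823, minus strand), had 0, 0.165, 0, 0.0543, 0.0615 and 0.340 CPM in retina IP replicates 1 to 6. It ranged from 6.21 to 16.5 CPM in ONH IP (median 10.9) and from 7.26 to 19.9 CPM in ONP IP (median 7.76). No retinal library came near the nerve libraries. The log2 fold change was -7.39 against ONH IP (SE 0.652, adjusted p = 7.52e-08) and -7.27 against ONP IP (SE 0.628, adjusted p = 4.42e-08). It rests on 11 counts in retina IP, against 1619 counts in ONH IP and 1319 counts in ONP IP. The value against ONH IP was -8.03 without retina IP replicate 6, -8.0 without ONH IP replicate 7 and -6.76 without ONP IP replicate 7. The value against ONP IP was -7.92 without retina IP replicate 6 and -6.48 without ONP IP replicate 7. Within batch 2 the values were -6.57 (adjusted p = 0.0259) and -7.53 (adjusted p = 0.00788).

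Unc5b, a netrin receptor that mediates repulsion (mm10 chromosome 10, 60762593 to 60831581, minus strand), ranged from 0.109 to 4.42 CPM in retina IP (median 2.90), from 18.4 to 88.7 CPM in ONH IP (median 53.1) and from 33.9 to 135 CPM in ONP IP (median 98.9). Again no retinal library reached the lowest nerve library. Its log2 fold change was -4.55 against ONH IP (SE 0.668, adjusted p = 4.33e-05) and -5.44 against ONP IP (SE 0.654, adjusted p = 3.37e-06). Within batch 2 the values were -4.06 (adjusted p = 0.0633) and -5.59 (adjusted p = 0.0123). The other netrin receptors were not called: Unc5c averaged 21.8, 20.7 and 20.7 CPM in retina IP, ONH IP and ONP IP, and Dcc averaged 3.06, 0.788 and 1.13 CPM. Ntn4, a netrin of basement membranes, averaged 5.45 CPM in retina IP, 3.64 CPM in ONH IP and 2.79 CPM in ONP IP and was not called.

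**Figure D3:**
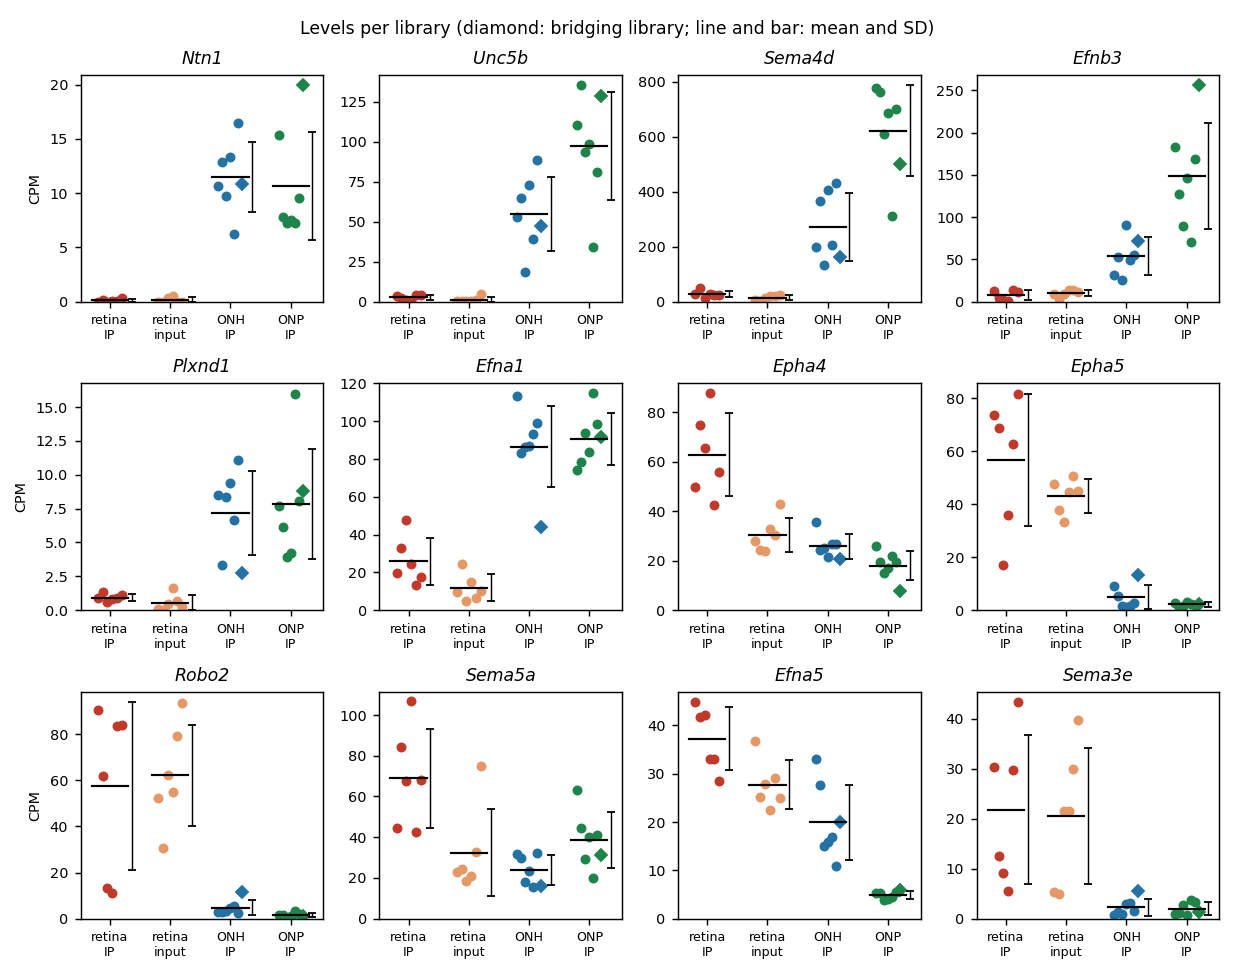
Levels in CPM of 12 guidance genes in each library of the 4 groups (retina IP and input, then ONH IP and ONP IP), with 1 panel per gene, points for libraries, diamonds for the bridging libraries, a line for the mean and a bar for the SD. Ntn1, Unc5b, Sema4d, Efnb3 and Plxnd1 are near the bottom of the axis in both retinal groups, and Epha5, Robo2 and Sema3e near the bottom in both nerve groups.

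Among the semaphorins, Sema4d was lower in retina IP. It lay on mm10 chromosome 13 (51685529 to 51793747, minus strand). Retina IP ranged from 11.6 to 48.0 CPM (median 25.1), ONH IP from 134 to 432 CPM (median 205) and ONP IP from 312 to 776 CPM (median 687). The groups of retina and nerve did not overlap. It differed by a log2 fold change of -2.87 against ONH IP (SE 0.423, adjusted p = 4.58e-05) and -4.15 against ONP IP (SE 0.410, adjusted p = 2.76e-07), and within batch 2 the values were -2.48 (adjusted p = 0.0297) and -4.19 (adjusted p = 0.00202). Its receptor gene Plxnb1 averaged 46.4 ± 35.0 CPM in retina IP (n = 6), 88.0 ± 19.3 CPM in ONH IP and 105 ± 29.2 CPM in ONP IP (SD, n = 7 each), and neither test called it (adjusted p = 0.334 and 0.134).

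Sema5a ranged from 42.7 to 107 CPM in retina IP (median 67.7), from 15.7 to 32.4 CPM in ONH IP (median 23.4) and from 20.1 to 63.4 CPM in ONP IP (median 40.2). Retina IP lay above every ONH library and overlapped ONP. It was higher against ONH IP (1.91, SE 0.436, adjusted p = 0.00236, and 2.23 within batch 2, adjusted p = 0.0977) and against ONP IP (1.15, SE 0.412, adjusted p = 0.0379, and 1.18 within batch 2, adjusted p = 0.234). The call against ONP IP ended without retina IP replicate 2 or 4, or without ONH IP replicate 7 (1.01, adjusted p = 0.172) or ONP IP replicate 7 (1.34, adjusted p = 0.165).

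Sema3e, a secreted semaphorin that acts on plexin-D1 without a neuropilin, had 30.3, 12.5, 9.22, 5.48, 29.8 and 43.3 CPM in retina IP replicates 1 to 6, and ranged from 0.759 to 5.46 CPM in ONH IP (median 1.44) and from 0.824 to 3.83 CPM in ONP IP (median 1.42). The groups did not overlap, although retina IP replicate 4, at 5.48 CPM, nearly met the bridging ONH library. It was higher against ONH IP (2.63, SE 0.904, adjusted p = 0.0298), which ended without retina IP replicate 6 (2.33, adjusted p = 0.05) or ONP IP replicate 7 (1.97, adjusted p = 0.252) and was 4.19 without ONH IP replicate 7. Against ONP IP it was called at 2.56 (SE 0.965, adjusted p = 0.0472). That call ended without ONP IP replicate 7 (1.62, adjusted p = 0.434) and without any of retina IP replicates 1, 5 and 6, ONH IP replicates 2, 4, 5 and 6, or ONP IP replicates 1, 2 and 4, and the value was 3.83 without ONH IP replicate 7. Within batch 2 the values were 2.11 (adjusted p = 0.362) and 3.96 (adjusted p = 0.105). Plxnd1, the receptor gene for Sema3e, differed in the opposite direction. It ranged from 0.586 to 1.32 CPM in retina IP (median 0.871), from 2.76 to 11.1 CPM in ONH IP (median 8.33) and from 3.92 to 16.0 CPM in ONP IP (median 7.66), without overlap. Its log2 fold change was -2.55 against ONH IP (SE 0.535, adjusted p = 0.00122) and -2.79 against ONP IP (SE 0.485, adjusted p = 0.000196). Without ONP IP replicate 7 both calls ended, at -1.61 (adjusted p = 0.0615) and -1.62 (adjusted p = 0.132), and without ONH IP replicate 7 the first was -3.35. Within batch 2 the values were -1.45 (adjusted p = 0.309) and -3.21 (adjusted p = 0.014).

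Sema3c, a secreted semaphorin known from heart and neural crest development, had 0 to 0.867 CPM in retina IP, 0.135 to 22.6 CPM in ONH IP and 1.21 to 3.19 CPM in ONP IP. The 22.6 CPM was the bridging library, and the other 6 ONH libraries had at most 4.54 CPM. The log2 fold change against ONH IP was -5.08 (SE 0.989, adjusted p = 0.000658). It was -2.18 (adjusted p = 0.289) without ONH IP replicate 7, -5.94 without ONP IP replicate 7 and -5.79 (adjusted p = 0.0462) within batch 2. The call of Sema3c against ONP IP also ended without ONH IP replicate 7. Sema6d ranged from 19.6 to 147 CPM in retina IP (median 51.8), from 83.2 to 192 CPM in ONH IP (median 132) and from 140 to 293 CPM in ONP IP (median 202), and was lower against ONP IP (-1.41, SE 0.498, adjusted p = 0.0346). The call ended without retina IP replicate 5 or 6 (-1.21 without replicate 6, adjusted p = 0.0707), without ONH IP replicate 3 or 4, and without ONP IP replicate 4 or 7 (-0.84 without replicate 7, adjusted p = 0.531).

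The remaining semaphorins Sema3a, Sema5b, Sema6a and Sema7a were not called. Sema3a, the classic repellent that works through neuropilin-1, averaged 17.1 ± 3.68 CPM in retina IP (n = 6), 1.93 ± 2.12 CPM in ONH IP and 1.13 ± 2.59 CPM in ONP IP (SD, n = 7 each), with an SE of 1.78 on the log2 fold change of 2.55 against ONH IP (adjusted p = 0.281). Of the neuropilins, Nrp2 was lower against ONP IP (-1.77, SE 0.578, adjusted p = 0.0236), with 1.68 to 17.7 CPM in retina IP (median 12.6) and 24.9 to 59.4 CPM in ONP IP (median 38.6). The groups did not overlap, and the call ended without ONP IP replicate 7 (-1.51, adjusted p = 0.281). Nrp1 averaged 14.4 CPM in retina IP, 45.7 CPM in ONH IP and 25.76 CPM in ONP IP. With all libraries in, Nrp1, Plxna1, Plxna2 and Plxna4 were not called.

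Of the 10 astrocyte markers 1 was higher and 3 were lower in retina IP against ONH IP, and 1 was higher and 4 were lower against ONP IP. Marker levels of other cells also moved with both comparisons. All 11 oligodendrocyte markers were lower in retina IP than in either nerve region, with Olig2 at 0.0466 CPM and Sox10 at 0.0969 CPM in retina IP. The 12 ganglion cell markers were higher in retina IP, 11 of 12 against ONH IP and 12 of 12 against ONP IP, with Pou4f2 at 0.0733 CPM in ONH IP and 0.0102 CPM in ONP IP. Microglia markers were lower in retina IP, 10 of 11 against ONH IP and 11 of 11 against ONP IP, with sums of 128 to 216 CPM in retina IP, 277 to 2302 CPM in ONH IP and 356 to 3475 CPM in ONP IP. Of 8 fibroblast markers 6 were lower and 1 was higher against either region. Of 9 endothelial markers 6 were lower and 0 higher against ONH IP, and 5 were lower and 1 was higher against ONP IP. Of 9 amacrine cell markers 5 were higher and 0 lower against either region. Against ONH IP, whose bridging library carried the rod signal, 10 of 10 rod and 7 of 7 cone markers were lower, against 0 of 10 and 1 of 7 for ONP IP. The part of all these markers in the guidance genes was not tested.

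The third question was how the optic nerve head differs from the nerve proper. Higher in ONH IP were the ephrin genes Efna5 and Efnb2 and the slit genes Slit2 and Slit3, and lower were Efnb3, Ephb1 and Sema4d. Of all 16355 genes tested, 4.43% were called higher and 3.04% lower, 7.48% in all, and 7 of 46 members is more than that share. The median log2 fold change of the members was 0.20, and that of all genes 0.017. Batch-1 libraries of the same replicate number deviated together. A fit that paired all ONH and ONP libraries by number called 10 members higher and 8 lower among 42 tested. It included the bridging pair, in which such pairing was not checked. Of the 14799 genes tested in that fit, 10% were called higher and 11.1% lower, 21.1% in all.

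Efna5 had 33.0, 27.6, 15.1, 15.9, 16.9, 10.9 and 19.97 CPM in ONH IP replicates 1 to 7, against 5.34, 5.34, 3.87, 4.12, 4.41, 5.59 and 5.98 CPM in ONP IP. Every ONH library lay above every ONP library. On the log2 scale the difference was 1.95 (SE 0.217, adjusted p = 7.84e-05), 1.99 within batch 1 (adjusted p = 0.000757) and 1.89 with pairing (adjusted p = 0.000602).

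Slit2, a repellent of ganglion cell axons along the optic pathway, ranged from 42.1 to 79.5 CPM in ONH IP (median 52.4) and from 11.6 to 50.5 CPM in ONP IP (median 19.3), with some overlap and with the ONH library higher in all 7 same-numbered pairs. The fitted difference was, in log2, 1.11 (SE 0.324, adjusted p = 0.0414) and 1.28 with pairing (adjusted p = 0.00252). Slit3, named after its values were seen since it lies under 5 CPM, ranged from 1.499 to 4.498 CPM in ONH IP and from 0 to 0.763 CPM in ONP IP without overlap (3.05, adjusted p = 0.0169). Efnb2, the ephrin-B at which ganglion cell axons turn in the chiasm, ranged from 4.49 to 10.6 CPM in ONH IP (median 6.48) and from 0.925 to 5.68 CPM in ONP IP (median 2.36), overlapping only at these ends. Its log2 fold change was 1.46 (SE 0.413, adjusted p = 0.0368) and 1.53 with pairing (adjusted p = 0.0121).

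In the other direction, Sema4d had 200, 364, 134, 406, 205, 432 and 162 CPM in ONH IP replicates 1 to 7, against 776, 762, 609, 687, 312, 700 and 500 CPM in ONP IP. The ranges overlapped, and the ONH library was the lower in every same-numbered pair. The log2 fold change was -1.28 (SE 0.289, adjusted p = 0.0117), -1.21 within batch 1 (adjusted p = 0.0174) and -1.32 with pairing (adjusted p = 0.00221).

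Efnb3 ranged from 25.4 to 91.0 CPM in ONH IP and from 70.2 to 256 CPM in ONP IP (-1.49, SE 0.435, adjusted p = 0.0408, and -1.53 with pairing, adjusted p = 0.00163). Ephb1 ranged from 45.1 to 148 CPM in ONH IP and from 73.6 to 251 CPM in ONP IP (-1.15, SE 0.317, adjusted p = 0.0329, and -1.14 with pairing, adjusted p = 0.00531). For both genes the groups overlapped and the ONH library was lower in all 7 same-numbered pairs. In the unpaired fit the calls of Efnb2, Efnb3, Ephb1 and Slit2 were close to the threshold. All 4 ended without any of ONH IP replicates 1, 3, 5 and 7 or ONP IP replicates 2, 4 and 7, at adjusted p-values of at most 0.0944. Efnb2 was also lost without ONH IP replicate 2 or ONP IP replicate 3 or 6, Efnb3 without ONH IP replicate 2 or 6 or ONP IP replicate 1 or 6, and Ephb1 and Slit2 without ONP IP replicate 1 or 3. Within batch 1 the 4 were called, at 1.19 for Efnb2 (adjusted p = 0.0209), -1.42 for Efnb3 (adjusted p = 0.0104), -1.12 for Ephb1 (adjusted p = 0.0276) and 1.05 for Slit2 (adjusted p = 0.0416).

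**Figure D4:**
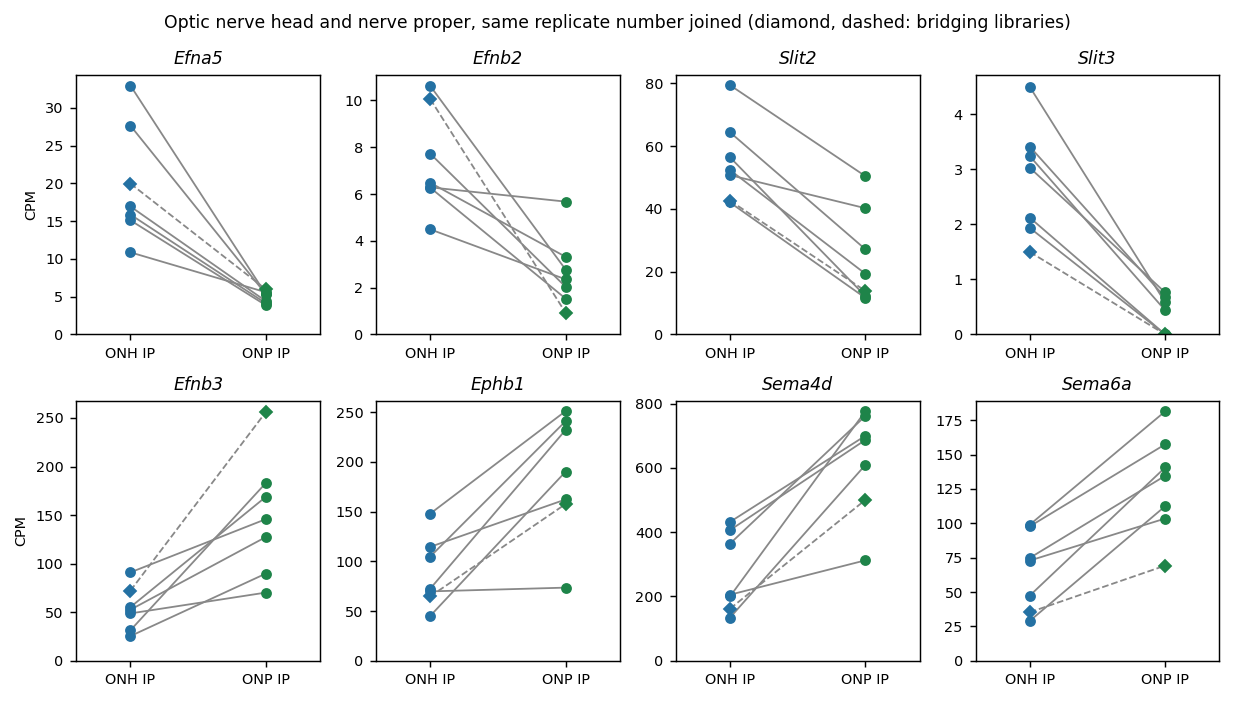
Levels in CPM of 8 guidance genes in ONH IP (left in each panel) and ONP IP (right), with same-numbered libraries joined and the bridging libraries as diamonds with a dashed line. Lines slope down in the upper row (Efna5, Efnb2, Slit2 and Slit3) and up in the lower row (Efnb3, Ephb1, Sema4d and Sema6a).

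The paired fit added 11 members. Higher in ONH IP were the Eph receptors Epha2 (1.5, adjusted p = 0.0262), Epha3 (2.36, adjusted p = 0.0453), Epha4 (0.52, adjusted p = 0.0329) and Ephb2 (1.49, adjusted p = 0.00424). The slit receptor gene Robo2 (1.61, adjusted p = 0.0337) and the neuropilin gene Nrp1 (0.73, adjusted p = 0.00819) were also higher. Lower in ONH IP were Efna2 (-0.63, adjusted p = 0.0423), Unc5b (-0.90, adjusted p = 0.0423), Sema5a (-0.73, adjusted p = 0.00271), Sema6a (-1.11, adjusted p = 0.00206) and Sema6d (-0.60, adjusted p = 0.0152). Within batch 1 alone Epha3 was at 0.74 (adjusted p = 0.523), and its first pair went the other way, with 2.82 CPM in ONH IP replicate 1 against 12.4 CPM in ONP IP replicate 1. Epha4 (adjusted p = 0.0954), Robo2 (0.116), Efna2 (0.104), Unc5b (0.141), Sema5a (0.067) and Sema6d (0.0816) were not called in batch 1 either. Ntn1, the gene of netrin-1, was not called, with 11.5 ± 3.22 CPM in ONH IP and 10.7 ± 5.01 CPM in ONP IP (SD, n = 7 each, adjusted p = 0.892 without pairing). The oligodendrocyte markers summed to 28380 to 71860 CPM in ONH IP and 36540 to 118200 CPM in ONP IP, and 2 of 11 of them were called lower in ONH IP. Markers of eye tissue outside the nerve were called higher in ONH IP, 10 of 10 for rods, 6 of 7 for cones, 6 of 8 for bipolar cells, 6 of 7 for pigment epithelium and melanocytes and 3 of 12 for ganglion cells. The rod markers summed to 41.3 to 47350 CPM in ONH IP (median 501) and 4.07 to 594 CPM in ONP IP (median 19.8), and the pigment cell markers to 27.3 to 415 CPM in ONH IP and 4.02 to 15.02 CPM in ONP IP. The part of these markers in the guidance genes was not tested.

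Related guidance genes outside the 46 were counted in the same fits. A list of 32 further ligands and receptors had 31 matched and 28 tested in the comparisons between regions. Against ONH IP 2 were higher and 8 lower in retina IP (12.7% and 21.1% of all genes). Against ONP IP 3 were higher and 10 lower (12.9% and 19.9% of all genes). In ONH IP against ONP IP 1 was higher and 2 lower (4.43% and 3.04% of all genes). In retina IP against input 25 were tested and 0 were called. At an unadjusted p under 0.05, 3 were higher and 0 lower (1771 and 1585 of all 15181 genes). DESeq2 called 1 higher, and 6.38% of all genes. The medians of the list were 0.25 for retina IP against input, 0.07 against ONH IP, -0.35 against ONP IP and -0.30 for ONH IP against ONP IP. Those of all genes were 0.017, -0.133, -0.098 and 0.017 in that order. Sema3b, a secreted semaphorin, averaged 22.7 CPM in retina IP, 828 CPM in ONH IP and 612 CPM in ONP IP, with log2 fold changes of -3.78 (adjusted p = 7.37e-06) and -3.45 (adjusted p = 1.07e-05). Plxnb3, a plexin of oligodendrocytes and the receptor for Sema5a, averaged 0.307 CPM in retina IP, 33.9 CPM in ONH IP and 66.3 CPM in ONP IP, with log2 fold changes of -6.41 (adjusted p = 7.38e-06) and -7.44 (adjusted p = 1e-06).

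Against ONP IP, Ntng1, a netrin-G, was higher in retina IP (16.7 against 0.0307 CPM, 5.95, adjusted p = 0.00854) and Sema3d was lower (1.99 against 19.1 CPM, -3.20, adjusted p = 0.000592). Against ONH IP, Flrt3, a membrane partner of Unc5 and Robo receptors, was higher (46.4 against 6.08 CPM, 2.64, adjusted p = 0.00502), and so was Plxnc1 (12.5 against 2.60 CPM, 1.63, adjusted p = 0.0348). The calls of Ntng1, Flrt3 and Plxnc1 ended without ONP IP replicate 7, and that of Plxnc1 also without ONH IP replicate 7 or retina IP replicate 1 or 2.

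A list of 38 signalling genes downstream of these receptors, all tested, had 10 higher and 9 lower in retina IP against ONH IP. The shares of all genes there were 12.7% and 21.1%. Against ONP IP 12 were higher and 8 lower (12.9% and 19.9% of all genes). In ONH IP against ONP IP 2 were higher and 3 lower (4.43% and 3.04% of all genes). Against input 0 were called. At an unadjusted p under 0.05, 7 were higher and 0 lower (1771 and 1585 of all 15181 genes). DESeq2 called 2 higher, and 6.38% of all genes. Its medians were 0.18 for retina IP against input, -0.08 against ONH IP, 0.14 against ONP IP and -0.02 for ONH IP against ONP IP. Ablim3, an actin-binding LIM protein gene, averaged 42.6 CPM in retina IP, 3.42 CPM in ONH IP and 1.16 CPM in ONP IP (4.16, adjusted p = 0.00024, and 5.66, adjusted p = 1.88e-05). The axonal adhesion gene L1cam averaged 97.0 CPM in retina IP, 2.59 CPM in ONH IP and 2.56 CPM in ONP IP (4.38, adjusted p = 0.0162, and 4.13, adjusted p = 0.0277). Mical2, an enzyme that oxidises actin, averaged 11.98, 3.10 and 1.68 CPM in the same order (3.13, adjusted p = 0.018, and 4.09, adjusted p = 0.00648). The GTPase gene Rac1 was lower in retina IP than in ONH IP (43.6 against 347 CPM, -2.99, adjusted p = 0.000334), and Rnd1 was higher than in ONP IP (33.4 against 1.05 CPM, 3.69, adjusted p = 0.0172). The calls of L1cam, Mical2 and Rnd1 ended without ONP IP replicate 7, and that of L1cam against ONP IP also without ONH IP replicate 7.

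Between the nerve regions, the kinase gene Abl1 was lower in ONH IP (66.8 against 105 CPM, -0.72, adjusted p = 0.0175) and Ablim1 was higher (140 against 87.2 CPM, 0.62, adjusted p = 0.017). Fyn, a kinase of the Src family (151 against 239 CPM, -0.74, adjusted p = 0.0461), and Adam10, a protease that cuts ephrins (53.3 against 78.1 CPM, -0.62, adjusted p = 0.0491), were called lower but lay near the threshold and were lost within batch 1.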

How the data were processed

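RNA sequencing libraries of retina (IP and input), ONH and ONP (IP) were analysed, 26 in all. The labels' protocols describe poly(A) RNA from freshly enucleated eyes and an ultra-low input cDNA kit, and do not state whether strand was kept. The values are estimated counts per gene as the authors deposited them, made with Salmon 1.6.0 against mm10 per the submitters' processing notes, with no normalization. GENCODE M21 gave symbols for 54495 of the 54532 identifiers. Every one of the 26 columns matched a label, so 0 columns were left unmapped.

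Estimated counts were rounded to whole numbers, filtered with edgeR's filterByExpr (minimum count 10, minimum total 15), scaled by TMM and tested with edgeR 4.0.16 in R 4.3.3. The test was the quasi-likelihood test with Benjamini-Hochberg adjustment over all genes, called at an adjusted p under 0.05. Retina IP and input were fitted alone. The other 3 comparisons came from 1 fit of the 20 IP libraries with the labelled batch as a term, since replicate 7 of ONH and of ONP links the batches. The procedure was also run on simulated counts with known changes. Those counts held no batch effect and no outlying library, so they do not test the batch term or the bridging libraries. CPM values use the library totals without TMM. Levels per kilobase divide CPM by annotated exon length. Figures were drawn with matplotlib 3.10.9.

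Members and lists were chosen with earlier results of these data known. Fold changes are given for at most 20 called members per comparison that averaged 5 CPM or more where they were higher, for the 8 members of smallest p above the same floor in retina IP against input, and for at most 4 called genes of each other list with at least 10 CPM. Promoters shown are the 2 members in each direction with the smallest p against ONP IP among those called in the same direction against each nerve region, with a single RefSeq entry. Alternatives were DESeq2 1.42.0, other size factors, no filter, no batch term, only the groups compared, batches alone, a replicate block and leaving out each library.

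ONH and ONP libraries share replicate numbers. In the 6 batch-1 pairs the deviations from the group means correlated at 0.144 to 0.583. There 6 of 6 ONH libraries correlated best with their own number, so the paired values stand beside the unpaired ones. The paired fit also held the bridging pair, which was not part of this check.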

Additional observations from a re-analysis of the deposited data

Results flagged for a closer look

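In 67 groups of 6 or 7 libraries of the named members, 6 held a library far from the others (Dixon's test at 95%), and chance alone gives about 1 in 20. The bridging library ONH IP replicate 7 was the far one for Robo2, at 11.5 CPM against 2.52 to 5.67 CPM in the other 6, and for Sema3c, at 22.6 CPM against 0.135 to 4.54 CPM. ONH IP replicate 1 was far from the rest for Epha4, at 35.7 CPM against 20.6 to 26.7 CPM. In ONP IP, replicate 5 had 16.0 CPM of Plxnd1 against 3.92 to 8.82 CPM, and replicate 7 had 0.356 CPM of Efna3 against 0 to 0.145 CPM. Retina input replicate 6 had 75.1 CPM of Sema5a against 18.6 to 32.7 CPM in the other 5.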

How the results depend on the processing

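Counts of called members and genes depended on the model more than on the scaling, and no named fold change reversed under any alternative run. In retina IP against input, members called higher numbered 0 in edgeR, 5 with DESeq2 and 6 with all 26 libraries in one fit, and 0 to 1 with a library left out. Called genes there numbered 193 without the low-count filter, 2072 with DESeq2, 2871 with all 26 libraries, 49 without input replicates 1 and 2, and 0 to 381 with a library left out (381 without retina IP replicate 1 and 246 without replicate 5). Against ONH IP, members higher numbered 9 with DESeq2, 14 without the batch term and 2 with only the groups compared. Genes higher numbered 2782 with DESeq2 and 3871 without the batch term, of 16355 tested. With only the groups compared they numbered 437 of 15754. Members lower there numbered 15 without the batch term and 3 in batch 2 alone, and all genes 8465, 2069 (only the groups compared) and 771. Against ONP IP, members higher numbered 15 without the batch term and 5 in batch 2 alone, members lower 6 with only the groups compared and 5 in batch 2 alone, and all genes 8851 without the batch term and 1700 in batch 2. Between ONH IP and ONP IP, members higher numbered 2 without the filter, 8 with only the groups compared and 8 in batch 1 alone. Genes higher in these fits numbered 515 of 31335, 1133 of 14799 and 1264 of 14753. Members lower numbered 5 with DESeq2 and 6 with only the groups compared. Genes lower there numbered 891 of 16355 and 1161 of 14799. All genes called numbered 2041 with DESeq2, 2294 with only the groups compared and 2445 in batch 1. Leaving out a library gave 3 to 8 higher, 5 to 8 lower and 2984 to 6027 genes against ONH IP. It gave 3 to 10 higher, 5 to 12 lower and 2155 to 5741 genes against ONP IP, and 2 to 5 higher, 1 to 5 lower and 601 to 1566 genes for ONH IP against ONP IP. Where ONP IP replicate 7 was left out, the calls against ONP IP and against ONH IP were at 3 higher and 5 lower each. With both bridging libraries out and no batch term, an alternative chosen after seeing the data, 16 members were higher and 16 lower against ONH IP among 9420 called genes, and 14 higher and 15 lower against ONP IP among 9444 (58.7% and 58.8% of the genes tested). In this last run every retinal library was batch 2 and every nerve library batch 1, so tissue and batch cannot be told apart. The cause of the shifts across runs was not tested.

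With a replicate block, ONH IP against ONP IP gave 10 members higher, 8 lower and 3118 genes. The retinal numbers missed the rule for pairing, which asks for over 0.1 in every pair (correlations of -0.166 to 0.298 with input, -0.112 to 0.169 with ONH IP and -0.11 to 0.126 with ONP IP, where 4, 0 and 1 of 6 libraries correlated best with their own number). For input this is a hint from the data of some pairing, with replicate 3 at -0.166. With a replicate block, retina IP against input called 0 members and 0 genes. With a replicate block without batch term, 15 members were higher and 15 lower against ONH IP, as were 25.1% and 25.2% of all genes. Against ONP IP 13 members were higher and 14 lower, as were 24.8% and 27.9% of all genes. Genes called numbered 7930 and 8167.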
